A study of Mus musculus with 15 samples.

Results

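The comparison described here is between mammary epithelial cells of pregnant mice given valproic acid (VPA) and those of pregnant mice given phosphate-buffered saline (PBS), both labelled day 21 of pregnancy. Its members are 5 of the 15 arrays of the series, 3 with VPA and 2 with PBS, taken by their labels and described across 12393 genes. All mice were C57BL/6 females. They received the agents by intraperitoneal injection, and epithelial cells were purified from the digested glands for mRNA extraction and hybridisation to Affymetrix arrays. The other 10 arrays hold 3 pregnant samples given 5-azacytidine (AzaC, an inhibitor of DNA methylation) and 7 labelled virgin at 9 weeks, of which 2 received PBS, 3 AzaC and 2 VPA. Dose, number of injections and the interval to collection are not given in the sources used here, nor is whether the replicates came from separate mice. The p-values below therefore measure only the spread between samples of a group, pooled over all 15 arrays and 6 groups.

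VPA is a short branched fatty acid used against epilepsy, and it inhibits several zinc-dependent histone deacetylases, enzymes that remove acetyl groups from histone tails. Inhibitors of this class usually raise one set of transcripts and lower another, and they slow the division of many cells. At the end of pregnancy the mammary epithelium turns from proliferation to secretion: its alveolar cells make caseins and whey proteins, build cholesterol and fatty acids for milk fat, and are kept in that state by prolactin and STAT5. When milk stasis follows weaning, LIF and STAT3 take over and the alveoli regress, which is called involution.

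Values are the deposited signals, taken as log2 from their range, on which a difference of 1 is a doubling, and each gene is read by 1 probe set. The VPA arrays correlated with each other at 0.959 to 0.979 across genes, the PBS pair at 0.972, and VPA with PBS arrays at 0.942 to 0.957. On the first principal component of all arrays, with 52.1% of the variance, the PBS arrays lay at -28.70 and -33.43 and the VPA arrays at 35.08, 29.04 and 29.23. VPA replicate 3 stood apart on the second component (14.7% of the variance), at -33.37 against 16.29 and 2.01 for the other VPA arrays. Its Gapdh control probe sets also differed more between the 3' and 5' ends, a sign of RNA quality, by 0.82 against -0.17 and 0.12, with 0.09 and 0.47 on the PBS arrays. Of all 15 arrays, virgin-labelled PBS replicate 2 had the largest such difference, 1.23, and lay at -29.6 on the second component. That array is 1 of the 2 PBS arrays behind every stage difference below. Luminal epithelial markers were present on all 5 arrays, with 14 of 14 measured markers above 6, as the label requires. The casein Csn2 read 13.79 and 13.69 on the PBS arrays and 13.91, 13.97 and 14.03 on the VPA arrays. On the 7 virgin-labelled arrays it lay between 13.69 and 13.94. These values lie close to the highest signal on each array, 14.3 to 14.48, which limits the differences this gene can show. Lpo, a milk protein gene further down the scale, read 10.86 and 10.59 on pregnant PBS arrays. On virgin-labelled PBS arrays it read 10.73 and 10.84. Neither gene set the stage labels apart with PBS, so the labels are used here only as given. The reason was not tested.

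Of the 12393 genes, 451 (3.64%) were higher and 290 (2.34%) were lower with VPA at an adjusted p below 0.05 (limma with Benjamini-Hochberg adjustment over all genes), together 5.98%. Such genes are called higher or lower below. The median change was 1.32 among those higher and -1.17 among those lower, against 0.06 over all genes. Changes beyond 1 were seen in 355 of the 451 and in 194 of the 290, and changes beyond 2 in 85 and 41. In all 741 the VPA and PBS arrays did not overlap, which 25.7% of all genes showed in the higher and 17.6% in the lower direction. The split of calls depended on the scaling: 60.9% were higher with the deposited values and 49.2% after quantile normalization, where 400 genes were higher and 413 lower.

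The number of calls was lower in every fit with 1 array left out. Leaving out a PBS array leaves 1 in that group, which is then assumed to vary like the other groups. Without PBS replicate 1, 24 genes were called, 18 of them among the 741, and without PBS replicate 2, 20 were called, 11 of them among the 741. Without VPA replicate 1, 2 or 3 the calls numbered 214, 193 and 231. A fit on the 5 arrays alone called 261 genes higher and 103 lower, of which 275 were among the 741. With the Gapdh 3' minus 5' difference as a covariate, 750 were higher and 483 lower.

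**Figure D1:**
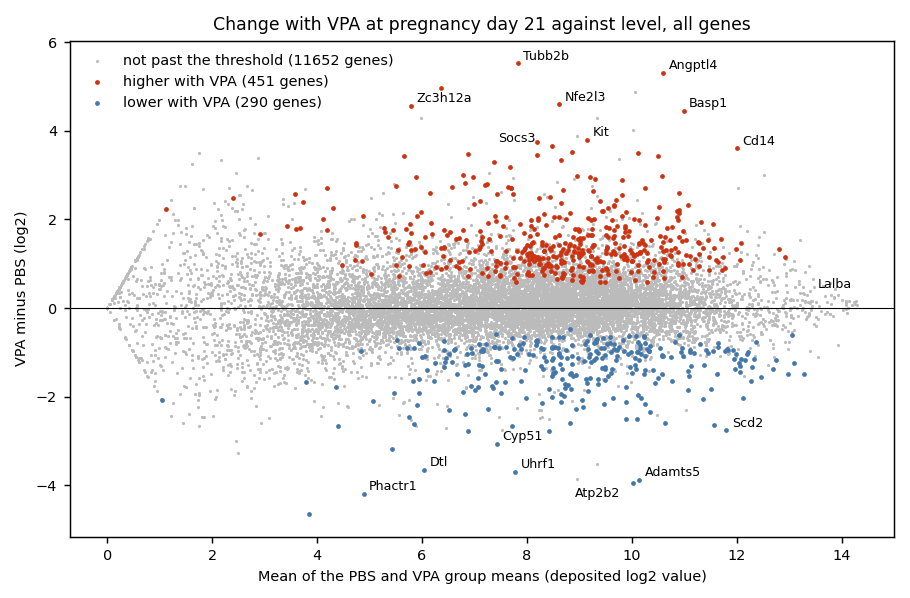
Change with VPA (VPA minus PBS group mean, log2) against the mean of both group means (deposited log2 value) for all 12393 genes, with 451 called higher in red, 290 called lower in blue and the rest in grey. Called genes lie mostly between 6 and 12 on the level axis, and the milk protein Lalba sits at the top of the scale near 0.

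The levels of these genes in virgin-labelled PBS arrays show where on the scale they lie. The contrast leaves these arrays out, but they entered the shared spread and the choice of probe set. The levels are therefore not independent of the calls. The higher genes had a median of 8.36 there and the lower genes 9.38, against 7.73 over all genes. A level under 6 was found for 12.2% of the higher and 5.17% of the lower genes, and for 28.7% of all.

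Among the 12 largest rises were genes of metabolism, signalling and cell shape, taken among called genes whose groups do not overlap. Tubb2b, a beta-tubulin best known from neurons, read 5.31 and 4.82 with PBS and 9.86, 10.30 and 11.62 with VPA, a change of 5.53 ± 1.01 (SE; adjusted p = 0.0175). Angptl4, a secreted inhibitor of lipoprotein lipase and a classical target of PPAR receptors, read 8.01 and 7.88 with PBS and 13.43, 13.13 and 13.20 with VPA. The difference was 5.31 ± 0.80 (SE; adjusted p = 0.0108), about 39.6-fold, with hardly any spread within either group. The SE takes a spread shared by all 6 groups, and on virgin-labelled AzaC arrays Angptl4 read 9.06, 11.66 and 12.28. Its second probe set changed by 0.81, so the size of the rise depends on the probe set, and the mean of both gave 3.06.

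Plscr2, a phospholipid scramblase, went from 3.43 and 4.34 to 8.50, 8.92 and 9.14 (change 4.97). Zc3h12a, an RNase that degrades inflammatory mRNAs, went from 3.85 and 3.17 to 7.97, 8.08 and 8.17 (change 4.56). Both were near the bottom of the scale with PBS, and with every value under 5 set to 5 both were still called (adjusted p = 0.0144 and 0.0077). Nfe2l3, a transcription factor of the NRF family, rose by 4.61 ± 0.86 (SE), from 6.39 and 6.24 to 11.03, 10.94 and 10.79.

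Basp1, a membrane-bound protein of growing neurites, read 9.16 and 8.36 with PBS and 13.24, 13.26 and 13.16 with VPA (change 4.46, adjusted p = 0.0452). The VPA values were nearly equal, and the PBS arrays differed by more than any of them. With values under 5 set to 5, a setting that alters the variance prior, its adjusted p was 0.0628, and that of Mt2, a metallothionein that binds zinc, was 0.0536. Mt2 read 8.45 and 8.28 with PBS and 10.93, 11.31 and 13.39 with VPA (change 3.51), with VPA replicate 3 well above the rest.

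The remaining 5 were Kit, Slc5a8, Socs3, Cd14 and Wnt5b. Slc5a8, a sodium-coupled carrier of monocarboxylates and short-chain fatty acids, rose by 3.74 ± 0.73 (SE), from 6.13 and 6.52 to 10.13, 9.68 and 10.39. Wnt5b, a Wnt ligand, rose by 3.52 ± 0.75 (SE), from 6.99 and 7.23 to 10.18, 10.68 and 11.02. Kit, Socs3 and Cd14 are described with their groups. Socs3 kept its call whichever of the 5 arrays was left out. Without PBS replicate 2 the other 11 all lost the call, with adjusted p from 0.0778 (Zc3h12a) to 0.228 (Basp1), and without PBS replicate 1 all of these but Zc3h12a lost it. Basp1, Cd14, Kit, Mt2 and Wnt5b also lost it without any 1 of the VPA arrays.

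**Figure D2:**
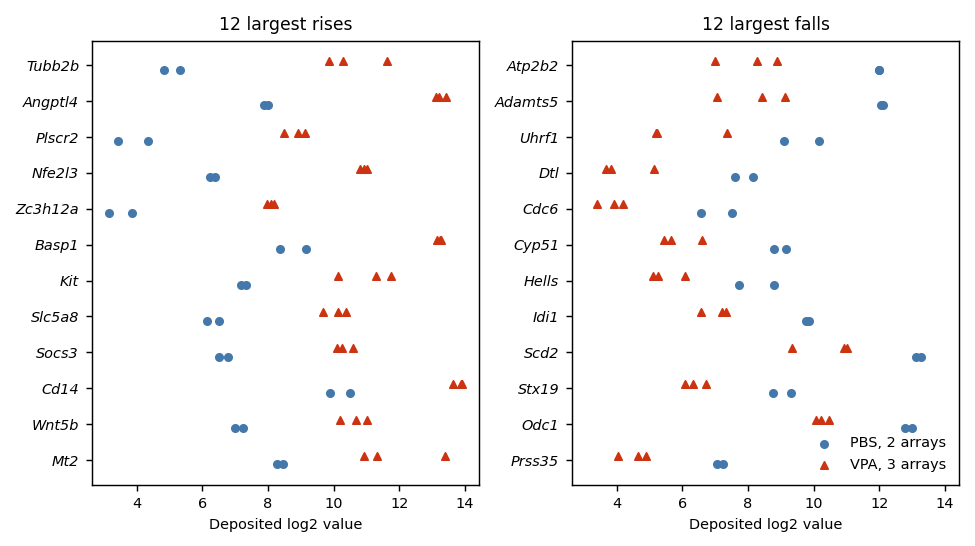
Deposited log2 values on each array for the 12 largest rises (left) and the 12 largest falls (right) among called genes whose groups do not overlap and with a group mean of at least 7, with PBS arrays as blue circles and VPA arrays as red triangles. VPA replicate 3 gives the lowest Atp2b2, Adamts5 and Scd2 values (7, 7.04 and 9.34).

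The 12 largest falls held genes of calcium export, DNA replication, sterol and fatty acid synthesis. Atp2b2, the plasma membrane calcium pump that moves calcium into milk, read 12 and 11.99 with PBS and 8.87, 8.26 and 7 with VPA (change -3.95 ± 0.74, SE, adjusted p = 0.019). Adamts5, a secreted protease that cleaves aggrecan and versican, read 12.12 and 12.04 with PBS and 9.11, 8.43 and 7.04 with VPA (change -3.89). Both were high and nearly equal on the PBS arrays and varied widely with VPA.

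Uhrf1, which brings the maintenance DNA methyltransferase to replicating DNA, read 9.08 and 10.17 with PBS and 5.23, 5.21 and 7.35 with VPA (change -3.70, adjusted p = 0.0404). Hells, a chromatin remodeller needed for DNA methylation, fell by 2.78, and Odc1, the first enzyme of polyamine synthesis, fell by 2.63, from 12.78 and 13.00 to 10.07, 10.48 and 10.22. Stx19, a syntaxin of epithelial cells, fell by 2.66 and Prss35, a serine protease, by 2.62. Dtl, Cdc6, Cyp51, Idi1 and Scd2 are described with their groups. Each of the 12 falls lost its call without either PBS array. Without PBS replicate 2 their adjusted p lay between 0.0884 (Cyp51) and 0.2305 (Uhrf1).

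A set of 6 genes, chosen after their values were seen, passed the threshold with any 1 of the 5 arrays left out: Socs3, Chst12 and Wfdc5 were higher, Phactr1, Slc13a1 and Mst1r were lower. Phactr1, which binds actin and a phosphatase, read 6.69 and 7.29 with PBS and 2.92, 2.90 and 2.54 with VPA (change -4.20 ± 0.46, SE, adjusted p = 0.0041), so its VPA values lay in the dim part of the scale. Wfdc5, a whey acidic protein family member, read 5.26 and 4.47 with PBS and 6.91, 6.96 and 6.95 with VPA. Chst12, a chondroitin sulfotransferase, went from 4.90 and 4.97 to 6.72, 6.54 and 6.63, and Slc13a1, a sodium sulfate carrier, from 6.82 and 6.97 to 4.90, 5.16 and 4.89. Mst1r was listed at 0 on all 3 VPA arrays and at 2.05 and 2.09 on the PBS arrays, at the bottom of the scale, and with every value under 5 set to 5 it had no difference.

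Summed markers of several cell types of the gland were higher on the VPA arrays, although few single markers passed the test. In bulk RNA more cells of a type and more RNA per cell cannot be told apart. The values given here are log2 sums of the linear marker signals on each array. Luminal epithelial markers summed to 14.81 and 14.75 with PBS and 15.53, 15.58 and 15.91 with VPA. Basal and myoepithelial markers, 17 measured, gave 14.83 and 14.77 against 15.31, 14.98 and 14.98. Non-epithelial markers were also present: skeletal muscle genes, 19 measured, summed to 16.43 and 15.07 with PBS and 16.86, 16.91 and 16.75 with VPA, with 17 of 19 above 6 on all 5 arrays.

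Fibroblast and matrix markers summed to 13.96 and 14.14 with PBS and to between 14.45 and 15.36 with VPA, with 21 of 21 changes positive. Over all genes, 6717 of 12393 changes were positive. Endothelial markers summed to 11.96 and 12.57 against 12.76 to 13.32, with 18 of 18 positive, and macrophage markers to 14.21 and 13.97 against 14.86 to 15.07, with 18 of 20 positive. Adipocyte markers summed to 14.51 and 14.21 against 14.84 to 15.06, with 12 of 12 positive. For these 4 lists and for muscle the VPA arrays lay above both PBS arrays. Few single markers passed the test: Dcn (decorin, 1.37) among 21 fibroblast markers, Cldn5 (1.98) and Aqp1 (1.72) among 18 endothelial markers, and none among 12 adipocyte, 20 macrophage or 19 muscle markers. Without either PBS array none of these 3 passed.

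The remaining lists were mixed. Neutrophil markers overlapped between the groups and had 1 call, Mmp9, of 11, a dim gene whose call was lost with values under 5 set to 5. T and natural killer cell markers (0 of 15) and red cell markers (0 of 6) overlapped too. Schwann cell markers (0 of 7) summed to 12.28 and 12.21 with PBS and 12.71 to 12.78 with VPA. Much of that sum was Sox10, at 11.63 and 11.63 with PBS and 12.15, 12.33 and 12.20 with VPA. Sox10 is also in the luminal progenitor list, so the sum does not single out nerve cells. B and plasma cell markers (0 of 9) were the 1 cell type list with a lower sum on every VPA array, 11.03 to 11.21 against 11.30 and 11.39, and Pax5 was listed at 0 on all 5 arrays. The part of these cells in the gene changes was not tested.

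**Figure D3:**
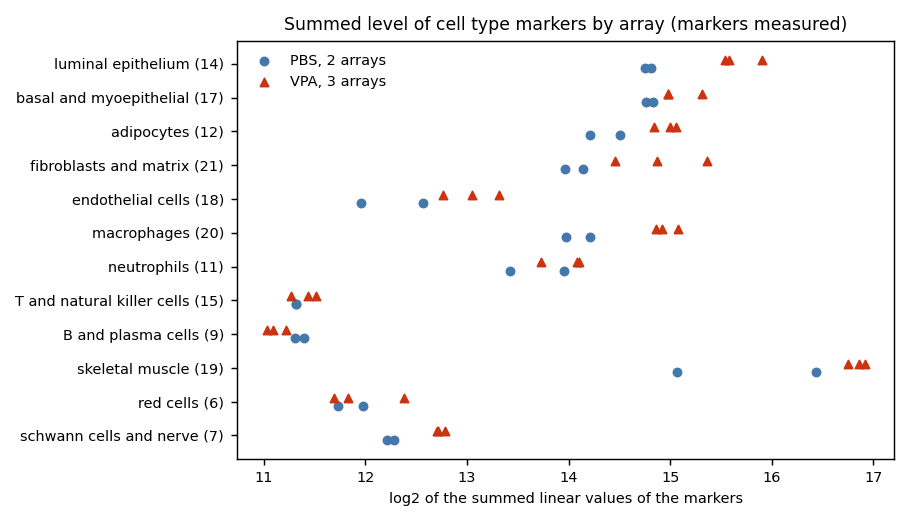
Summed level of each cell type's markers on each array (log2 of the sum of the linear values, number of measured markers in brackets), with PBS arrays as blue circles and VPA arrays as red triangles. VPA arrays lie above both PBS arrays for luminal, basal, adipocyte, fibroblast, endothelial, macrophage, muscle and Schwann cell markers, and PBS replicate 2 is low for muscle, at 15.07. Much of the Schwann cell sum is Sox10, which is also a luminal progenitor gene.

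Genes of DNA replication were lower. Of 45 measured, 18 were called lower and 0 higher, with a median change of -0.84. Positive changes numbered 2 of 45, against 6717 of 12393 over all genes. Replication starts when CDC6 and CDT1 load the MCM helicase onto origins, after which primase, polymerases and the PCNA clamp copy the strands. Cdc6 read 6.56 and 7.5 with PBS and 3.93, 3.41 and 4.18 with VPA (change -3.19 ± 0.50, SE, adjusted p = 0.0115), and Cdt1 read 9.27 and 10.14 against 7.31, 7.46 and 8.39. Both had their higher PBS value on replicate 2. Other probe sets of Cdt1 changed by up to 1.40 in the opposite direction.

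Of the MCM subunits, Mcm5 went from 9.91 and 10.23 to 7.72, 7.69 and 7.98 (change -2.27), Mcm6 fell by 1.96, Mcm4 fell by 1.51 and Mcm2 fell by 0.95. Dtl, the substrate receptor that has CDT1 degraded during S phase, read 7.59 and 8.16 with PBS and 3.84, 3.68 and 5.12 with VPA (change -3.66). Pcna fell by 1.48 and Rrm1, a subunit of ribonucleotide reductase, by 2.02. The other called members were Rfc4, Pola1, Pola2, Prim1, Pole, Lig1, Tk1, Chaf1b and Tipin. In the fits with 1 PBS array left out, 0 of 45 were called, and without VPA replicate 1, 2 or 3 the counts were 5, 5 and 8, while the median stayed between -1.09 and -0.70.

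The promoters of replication genes often carry sites of E2F factors, which act at the entry to S phase. In the 250 bases before the RefSeq start site (build GRCm38.p6), 6 of 37 replication genes with a promoter in the reference table held TTTCGCGC or TTTGGCGC on either strand, 16.2%, against 0.759% of the 27025 genes of the table. Of the measured genes with a promoter there, 131 of 9887 held it (1.33%), but these are 79.8% of all measured genes, under the 80% set for such a comparison. Among the called members these were Dtl, Mcm5, Mcm6 and Pola1, 4 of 15 with a promoter. The windows of the pair with the largest falls are shown because their expression is described above; this display was chosen after the values were seen. Dtl lies at chr1:191575545-191575794, minus strand, and Mcm5 at chr8:75109259-75109508, plus strand, both written 5′ to 3′ with the E2F letters in capitals. In Mcm5 a forward and a reverse match overlap.
Dtl: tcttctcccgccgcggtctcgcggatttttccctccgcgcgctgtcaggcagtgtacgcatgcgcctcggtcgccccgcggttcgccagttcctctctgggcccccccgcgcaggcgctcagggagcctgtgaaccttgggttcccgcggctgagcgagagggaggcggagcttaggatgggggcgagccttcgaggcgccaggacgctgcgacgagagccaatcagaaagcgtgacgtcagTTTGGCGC
Mcm5: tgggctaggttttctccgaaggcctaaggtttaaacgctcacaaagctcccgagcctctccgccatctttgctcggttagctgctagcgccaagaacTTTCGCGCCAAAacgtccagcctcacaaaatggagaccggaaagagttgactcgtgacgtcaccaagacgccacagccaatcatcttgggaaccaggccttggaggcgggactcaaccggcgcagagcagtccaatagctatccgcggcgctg
Dtl has its match in the last 8 bases before the start, and the first of those in Mcm5 begins 153 bases before it. A match describes letters only and is not a measured binding site.

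Mitosis genes had a lower median, -1.31 over 46 measured, but only 3 passed: Ttk, Kif23 and Cenph. Cenph, a kinetochore protein, read 5.47 and 6.89 with PBS and 0.59, 2.61 and 1.38 with VPA, and with values under 5 set to 5 it changed by -1.18 (adjusted p = 0.143). Ttk, the spindle checkpoint kinase, read 6.66 and 7.46 against 5.21, 5.16 and 5.88 (change -1.64), and Kif23, a kinesin of cytokinesis, changed by -0.91, while its other probe sets ranged up to 0.30. Proliferation marker Mki67 read 10.28 and 11.93 with PBS and 6.90, 6.45 and 9.40 with VPA, a change of -3.52 ± 1.03 (SE) that did not pass (adjusted p = 0.0657). Cdk1, the kinase that starts mitosis, read 9.00 and 10.34 against 6.37, 6.35 and 8.80 (change -2.50, adjusted p = 0.101). For both, VPA replicate 3 lay far above the other VPA arrays and PBS replicate 2 above replicate 1.

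The same arrays set the count of mitosis calls. Without VPA replicate 3, 6 of 46 were lower and the median over the leave-one-out fits ranged from -1.92 to -0.78; without either PBS array 0 were. The core of the cell cycle homology element, TTTGAA on either strand, stood in the 250-base window of 15 of 38 mitosis genes (39.5%) and of 18.3% of the table's genes, and in none of the 3 called members.

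Regulators of the G1 phase moved both ways, with 4 of 22 higher and 3 lower. Ccnd1 (cyclin D1), which drives cells out of G1, read 11.87 and 12 with PBS and 9.55, 8.88 and 9.58 with VPA (change -2.60 ± 0.31, SE, adjusted p = 0.0062). Ccne1 (cyclin E1) fell by 1.60 and the pocket protein Rbl1 by 1.19. Rb1, the retinoblastoma protein that holds E2F factors back, read 8.21 and 8.52 with PBS and 11.35, 11.29 and 11.15 with VPA (change 2.90). Cdkn1b (the inhibitor p27) rose by 1.66, Btg1 by 1.99 and Btg2 by 2.18, the last a pair of antiproliferative genes. Cdkn1a (p21), a usual target of deacetylase inhibitors, read 8.13 and 8.42 against 7.57, 7.80 and 8.01 (change -0.48, adjusted p = 0.191). The list had 2 calls without PBS replicate 1 and 1 without PBS replicate 2, and Ccnd1 reached an adjusted p of 0.0501 at most.

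**Figure D4:**
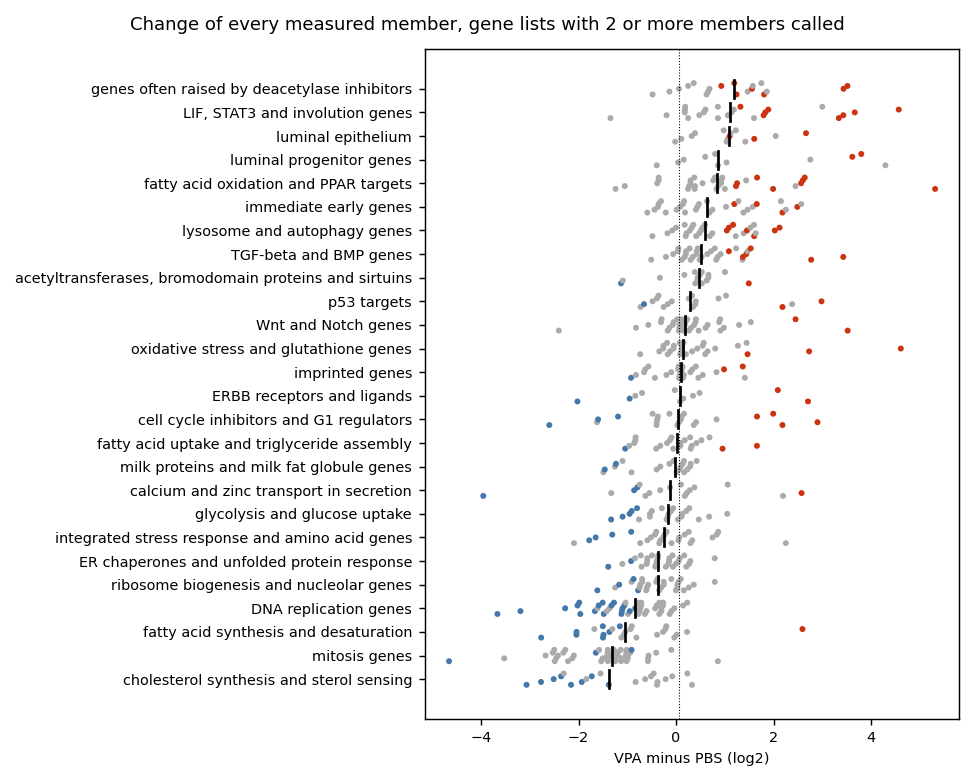
Change with VPA (log2) of every measured member of the 26 tissue, drug and process lists with at least 2 called members, ordered by median, with members called higher in red, lower in blue and others in grey. Black bars are list medians and the dotted line is the median of all genes (0.06); cholesterol synthesis has the lowest median, -1.38, and genes often raised by deacetylase inhibitors the highest, 1.19.

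Genes of cholesterol synthesis were among the falls. Of 21 measured genes, 8 were called lower and 0 higher, with a median of -1.38. On 17 of 21 the VPA arrays lay below both PBS arrays, which 17.6% of all genes showed. Idi1 and Fdps make the isoprenoid units: Idi1 read 9.86 and 9.75 with PBS and 6.57, 7.22 and 7.32 with VPA (change -2.77), and Fdps read 11.51 and 11.20 against 8.83, 8.85 and 8.86 (change -2.51). A second Fdps probe set changed by -1.53, and the mean of both did not pass (adjusted p = 0.0630). Sqle, which commits squalene to sterols, went from 11.63 and 11.43 to 9.47, 9.33 and 8.72 (change -2.36). The groups were well apart for all 3.

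Of the enzymes after squalene, Cyp51, the lanosterol demethylase, read 9.14 and 8.79 with PBS and 5.45, 5.66 and 6.59 with VPA (change -3.07 ± 0.50, SE, adjusted p = 0.0128). Lss fell by 1.38, Msmo1 by 1.93 and Dhcr7, the last enzyme of the pathway, by 2.15. Stard4, a cytosolic sterol carrier, fell by 1.73. Srebf2, the factor that senses sterols and switches the pathway on, changed by 0.23 (adjusted p = 0.530), and Hmgcs1 by -0.83 (adjusted p = 0.202). When a PBS array was left out, 0 of 21 were called; without VPA replicate 1, 2 or 3 there were 5, 6 and 8, and the median lay between -1.43 and -0.93.

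Sterol genes are classically driven by SREBP-2 together with NF-Y. The CCAAT letters that NF-Y binds stood, on either strand, in the 250-base window of 16 of 17 cholesterol genes with a promoter (94.1%), of 28 of 38 mitosis genes (73.7%) and of 23 of 37 replication genes (62.2%), against 37.5% of all genes in the table, and in all 5 called members that had one. The sterol element core TCACNCCAC was found in 1 of the 17, and in none of those 5. The windows of the pair with the largest falls, again chosen for display after the values were seen, are Cyp51 at chr5:4104698-4104947, minus strand, and Idi1 at chr13:8885356-8885605, plus strand, with the CCAAT letters in capitals, on the opposite strand in Idi1.
Cyp51: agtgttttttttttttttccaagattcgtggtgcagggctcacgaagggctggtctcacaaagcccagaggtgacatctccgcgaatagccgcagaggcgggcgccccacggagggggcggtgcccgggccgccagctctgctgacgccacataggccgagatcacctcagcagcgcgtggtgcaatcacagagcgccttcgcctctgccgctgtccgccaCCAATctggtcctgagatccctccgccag
Idi1: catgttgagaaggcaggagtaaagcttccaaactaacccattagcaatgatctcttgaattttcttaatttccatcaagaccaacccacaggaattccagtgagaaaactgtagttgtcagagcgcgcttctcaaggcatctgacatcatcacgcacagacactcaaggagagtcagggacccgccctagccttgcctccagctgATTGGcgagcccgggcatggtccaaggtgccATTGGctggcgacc
The Cyp51 match begins 29 bases before the start, and those of Idi1 begin 45 and 14 bases before it. Motif shares over the called genes as a whole are not given, since under 80% of them had a promoter in the table.

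Fatty acid synthesis was lower alongside. Of 24 genes, 8 were called lower and 1 higher, with a median of -1.05. Acly, which makes cytosolic acetyl-CoA, fell by 1.5, and Fasn, the synthase itself, went from 14.07 and 13.98 to 12.60, 12.80 and 12.17 (change -1.5, adjusted p = 0.0484). Acacb, the mitochondrial acetyl-CoA carboxylase whose product restrains oxidation, read 11.22 and 11.16 with PBS and 8.58, 8.96 and 9.90 with VPA (change -2.04). Acaca, the cytosolic form, read 10.82 and 10.83 against 10.83, 9.63 and 6.99, so its fall lay in 2 of 3 VPA arrays and did not pass (adjusted p = 0.285).

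Of the desaturases and elongases, Scd2 read 13.26 and 13.11 with PBS and 11.01, 10.91 and 9.34 with VPA (change -2.77), Fads1 fell by 1.37, Fads2 fell by 1.49 and Elovl5 fell by 2.04. Fads3, a relative that acts on sphingoid bases, went the other way, from 4.32 and 5.38 to 7.39, 7.37 and 7.56. Its second probe set changed by 1.34, and the mean of both did not pass (adjusted p = 0.0793). Srebf1, the factor behind many of these genes, changed by -0.39 (adjusted p = 0.437). VPA replicate 3 had the lowest Acly, Fasn, Scd2 and Elovl5 values. Without either PBS array 0 of 24 were called, and the median stayed between -1.13 and -0.92. Uptake and triglyceride assembly had 2 of 22 higher, Slc27a1 (a fatty acid transporter, 1.66) and Agpat3 (0.95), and 1 lower, Lpin1 (a phosphatidate phosphatase, -1.04). In the fits with 1 PBS array left out, none of these 3 passed.

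Fatty acid oxidation and PPAR target genes were higher, with 8 of 31 called higher and 0 lower and a median of 0.83. Cpt1a, the carnitine transferase that admits fatty acids to mitochondria, read 8.48 and 8.34 with PBS and 10.28, 9.88 and 10.05 with VPA (change 1.66 ± 0.28, SE, adjusted p = 0.0134). Its partners Cpt2 and Slc25a20 rose by 1.23 and 1.25. Eci2, an enoyl-CoA isomerase, went from 8.66 and 8.59 to 10.30, 10.67 and 10.87 (change 1.99).

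Acot1, a cytosolic acyl-CoA thioesterase, read 7.91 and 7.97 with PBS and 10.01, 10.50 and 11.22 with VPA (change 2.64), and Ucp3, a mitochondrial carrier best known in muscle, read 8.78 and 8.29 against 11.08, 10.85 and 11.36 (change 2.56). Acadl, the long-chain acyl-CoA dehydrogenase, rose by 2.60, but its second probe set changed by 0.25 and the mean of both did not pass (adjusted p = 0.0935). Pdk4, which shuts pyruvate out of oxidation, read 9.50 and 8.25 against 11.97, 10.92 and 11.08 (change 2.45, adjusted p = 0.0571). When a PBS array was left out, 0 of 31 were called, and without VPA replicate 1, 2 or 3 there were 8, 6 and 6. Muscle and adipocyte markers, which share part of this list's biology, had higher sums on the same arrays, from 15.07 to 16.43 with PBS and 16.75 to 16.91 with VPA for muscle; their part in it was not tested.

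Genes of LIF, STAT3 and involution were higher, with 8 of 24 called higher and 0 lower and a median of 1.10. The ligand Lif was dim, at 4.85 and 4.75 with PBS and 6.85, 6.03 and 6.90 with VPA (change 1.79, adjusted p = 0.0304). Of the receptors, Osmr, the oncostatin M receptor, read 6.98 and 6.97 against 10.41, 10.24 and 10.28 (change 3.34), and Il6st, the shared subunit gp130, rose by 1.32. Stat3 itself read 10.86 and 10.34 with PBS and 12.70, 12.51 and 12.26 with VPA (change 1.89).

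Socs3, a STAT3 target and the feedback inhibitor of the gp130 receptor, read 6.79 and 6.52 with PBS and 10.10, 10.59 and 10.26 with VPA. Its change of 3.66 ± 0.29 (SE) had an adjusted p of 6.016e-04, and without any 1 array it was at most 0.0143. Cebpd rose by 1.83, though its second probe set changed by -0.12. Tgfb3, a growth factor of early involution, went from 9.02 and 8.54 to 12.82, 12.32 and 11.48 (change 3.43). Igfbp5, which sequesters IGF-1 in the involuting gland, read 11.87 and 10.17 against 14.28, 14.13 and 13.64 (change 3.00, adjusted p = 0.176), where the PBS arrays differed widely. Without PBS replicate 1 or 2 the list had 2 and 1 calls, with a median between 1.04 and 1.21 over the fits that left out an array. Macrophage and fibroblast markers, whose sums were also higher with VPA (macrophages 14.86 to 15.07 against 13.97 and 14.21), moved with this list, and their part was not tested.

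TGF-beta and BMP genes had 6 of 32 called higher and 0 lower, with a median of 0.50. Beside Tgfb3 these were the latent binding proteins Ltbp1, Ltbp2 and Ltbp3 and the signal carriers Smad1 and Smad4. Ltbp1 read 6.03 and 5.62 with PBS and 8.70, 8.55 and 8.53 with VPA (change 2.77), Smad1 rose by 1.44 and Smad4 by 1.08. Wnt and Notch genes had 2 of 36 called (5.56%), near the share of all genes (5.98%), with a median of 0.18. Both were higher: Wnt5b and the receptor Notch1, which went from 8.52 and 8.41 to 11.07, 10.79 and 10.88 (change 2.45). Without either PBS array no member of these lists was called. Fibroblast sums rose on the same arrays, from 13.96 and 14.14 to between 14.45 and 15.36.

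Immediate early genes, which respond within minutes to stimuli and also to tissue digestion, had 4 of 29 called higher and 0 lower, with a median of 0.64. Junb read 6.98 and 7.01 with PBS and 9.20, 9.35 and 9.89 with VPA (change 2.49), Ier3 rose by 1.65 and Klf4 by 1.19. Fos read 8.52 and 8.14 against 10.21, 9.20 and 9.41 (change 1.28, adjusted p = 0.199), and Egr1 changed by 1.47 (adjusted p = 0.252). None was called without either PBS array. Heat shock genes had 0 of 16 called; Hspa1a had the smallest p of them, with a change of 1.58 (adjusted p = 0.0679).

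The targets of VPA belong to the zinc-dependent deacetylases, whose transcripts had a median change of 0.37, against 0.06 over all genes. Positive changes numbered 6 of 8 measured, against 6717 of 12393 over all genes. Only Hdac5 was called, a share of 12.5% against 5.98% of all genes. It read 8.22 and 8.48 with PBS and 9.51, 9.44 and 9.86 with VPA (change 1.25 ± 0.26, SE, adjusted p = 0.0246). Hdac1 read 10.10 and 10.54 against 9.92, 10.12 and 10.33 (change -0.20, adjusted p = 0.638) and Hdac2 read 7.82 and 7.67 against 7.89, 7.62 and 7.02 (change -0.24, adjusted p = 0.692), and for both the groups overlapped. Among 17 partners of deacetylase complexes Tbl1x was higher (1.22), a share called of 5.88% against 5.98% of all genes. Of 16 acetyltransferases, bromodomain proteins and sirtuins, Sirt2 was higher (1.49) and Hat1, which acetylates newly made histone H4, was lower (-1.13). These calls were lost without either PBS array.

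Genes often raised by deacetylase inhibitors in other cells gave 7 of 19 called higher and 0 lower, with a median of 1.19. AzaC, compared with the same PBS arrays, also gave 7 higher and 0 lower in this list, with a median of 1.13. The list therefore does not set VPA apart from AzaC. Gadd45a, a growth arrest gene, read 4 and 3.89 with PBS and 7.35, 7.76 and 7.02 with VPA (change 3.43, adjusted p = 0.036), and Gadd45b rose by 1.56. Tgm2 (transglutaminase 2) rose by 1.81, Sat1, which acetylates polyamines for export, by 1.24, and Hspa2 by 0.93. With Mt2 and Klf4 these make up the 7. None of the 7 was called without either PBS array, and the median ranged from 0.93 to 1.29. Of 7 histone genes H2aw was higher (0.59), and of 30 neuronal genes only Tubb2b was (3.33%, against 3.64% of all genes called higher).

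In the DNA methylation machinery Uhrf1 alone of 10 was called. Dnmt1, the maintenance enzyme that it recruits, read 10.27 and 10.54 with PBS and 10.35, 10.25 and 10.54 with VPA (change -0.03, adjusted p = 0.963), and Dnmt3a and Dnmt3b changed by 0.28 and 0.40 without passing. Of 26 imprinted genes Grb10 (0.98) and Dcn (1.37) were higher and Impact (-0.92) was lower. One of the other probe sets of Grb10 changed by -0.02.

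Milk protein genes stayed at the top of the scale. Of 20 genes of milk proteins and the milk fat globule, 0 were higher and 2 lower, with a median of -0.02. Wap read 13.78 and 13.53 with PBS and 14.08, 14.06 and 14.09 with VPA (change 0.42, adjusted p = 0.145) and Lalba changed by 0.14 (adjusted p = 0.555). The 2 called genes lay lower: Lpo, the antibacterial lactoperoxidase, went from 10.86 and 10.59 to 8.90, 9.05 and 9.84 (change -1.46), and Slc34a2, a phosphate carrier, from 13.78 and 13.63 to 12.81, 12.52 and 12.09 (change -1.23). Among regulators downstream of prolactin, Elf5 changed by 0.03 and Stat5a by -0.45 (adjusted p = 0.954 and 0.399), and Ccnd1 was the only call of 16. In the fits with 1 PBS array left out, Lpo and Slc34a2 were not called.

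Calcium and zinc transport for secretion had 3 of 17 lower and 1 higher. Atp2b2 is described above. Orai1, the plasma membrane calcium entry channel, went from 12.06 and 12.01 to 11.13, 11.29 and 11.30 (change -0.80), and Slc30a4, which loads zinc into milk vesicles, fell by 0.86. Slc30a1, the zinc exporter induced together with metallothioneins, was dim, at 1.58 and 2.99 with PBS and 4.28, 4.72 and 5.57 with VPA, and was not called with values under 5 set to 5. None of these was called without either PBS array.

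Luminal and progenitor genes were higher. Of 14 luminal markers 3 were called, Cldn4 (a claudin, 2.66), Cdh1 (E-cadherin, 1.60) and Tjp1 (a tight junction scaffold, 1.10), with a median of 1.08. Krt8, the luminal keratin, read 11.55 and 11.63 with PBS and 12.46, 12.62 and 13.36 with VPA (change 1.22, adjusted p = 0.111). Of 11 luminal progenitor genes 2 were called. Kit, the stem cell factor receptor that marks these progenitors, read 7.33 and 7.18 with PBS and 11.75, 11.28 and 10.12 with VPA (change 3.80 ± 0.90, SE, adjusted p = 0.0359).

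Cd14, an endotoxin co-receptor shared with macrophages, went from 10.50 and 9.89 to 13.90, 13.87 and 13.65 (change 3.61). Aldh1a3, a retinaldehyde dehydrogenase of progenitors, read 4.53 and 3.15 with PBS and 8.31, 7.74 and 8.34 with VPA, a change of 4.29 that did not pass (adjusted p = 0.064). Basal and myoepithelial genes had 0 of 17 called and a median of 0.23; Krt14 changed by 0.50 (adjusted p = 0.286), with other probe sets from -1.18 to 0.71, and Acta2 by 0.12. Of 11 hormone-sensing genes Cited1 was lower (-1.66). When a PBS array was left out, no member of these lists passed.

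Of 11 genes of the ERBB family, whose ligands drive alveolar growth, 2 receptors were called higher and 2 ligands lower. Erbb2 read 6.70 and 6.01 with PBS and 8.37, 8.28 and 8.67 with VPA (change 2.09), and Erbb3 read 8.77 and 9.03 against 11.40, 11.32 and 12.09 (change 2.70 ± 0.41, SE, adjusted p = 0.0112). Egf fell by 2.02, from 10.58 and 10.71 to 8.51, 8.40 and 8.96, and Hbegf fell by 0.95. A second Hbegf probe set changed by -0.59, and the mean of both did not pass (adjusted p = 0.0609). All 4 calls were lost without either PBS array.

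Lysosome and autophagy genes were higher, with 7 of 29 called higher and 0 lower and a median of 0.59. Lamp2, a lysosomal membrane protein, read 9.99 and 9.67 with PBS and 11.46, 11.54 and 11.29 with VPA (change 1.60), Lgmn, a lysosomal protease, rose by 2.12 and Npc1, the cholesterol exporter of lysosomes, by 1.45. Of autophagy genes Gabarapl1 rose by 2.02, Ulk1 by 1.17, Map1lc3a by 1.08 and Map1lc3b by 1.04. Without either PBS array 0 of 29 were called. Macrophage markers had higher sums on the same arrays (14.86 to 15.07 against 13.97 and 14.21), and their part was not tested.

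Among biosynthetic and energy genes the counts differed by list. Ribosome biogenesis had 4 of 29 lower and 0 higher, among them Nolc1, a nucleolar chaperone, which went from 9.94 and 9.92 to 8.72, 8.66 and 7.57, Rrs1 (-1.17), Bysl (-0.87) and Bop1 (-0.78). A second Bysl probe set changed by -0.29, and the mean of both did not pass (adjusted p = 0.0995). Cytosolic ribosomal proteins had 0 of 32 called and a median of -0.01. Glycolysis and pyruvate genes had 5 of 23 lower: the glucose transporter Slc2a1 read 11.43 and 11.41 with PBS and 10.49, 10.54 and 10.50 with VPA (change -0.91), and Pdhb and Dlat of pyruvate dehydrogenase fell by 1.33 and 1.10, Pfkl by 0.95 and Hk2 by 0.80. Of 50 oxidative phosphorylation genes 1 was lower, Atp5g1 (-0.97), with a median of -0.24, a share near that of all genes called lower (2.34%). In the fits with 1 PBS array left out, no gene of these lists was called.

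Stress pathways were mixed. The endoplasmic reticulum chaperone list had 2 of 29 lower, Sdf2l1 (-1.39) and Dnajb11 (-0.92). Integrated stress response and amino acid genes had 4 of 26 lower: Aldh18a1 (-1.65), Cth (-1.31), Slc38a2 (-0.92) and Cbs, which was dim. With values under 5 set to 5 Cbs changed by -0.38 (adjusted p = 0.2407), its other probe set changed by 0.30, and with the mean of both it was not called (adjusted p = 0.6146). Of 28 oxidative stress genes 3 were higher, Nfe2l3, Nfe2l1 (1.47) and Nqo1, a quinone reductase that went from 5.43 and 4.99 to 7.70, 8.39 and 7.72. p53 targets had Trp53inp1 (2.98) and Btg2 higher and Aen (-0.66) lower of 18, and Casp6 (1.01) was the only call among 23 BCL2 family and caspase genes. Aen did not pass with the mean of its 3 probe sets (adjusted p = 0.1686). Of 17 clock genes Bhlhe40 was higher (1.61), and of 28 interferon-stimulated genes 0 were called. The shares called in the BCL2 and clock lists, 4.35% and 5.88%, were no higher than that of all genes (5.98%). With either PBS array left out, 1 member of these lists passed without replicate 1, in the chaperone list, and 0 without replicate 2.

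AzaC gives the other epigenetic inhibitor at the same stage. The direct test of VPA against AzaC, whose contrast leaves out the PBS arrays, called 0 of 12393 genes (limma, 468 at an unadjusted p below 0.05, smallest adjusted p 0.189). The 2 genes with the smallest p were at the bottom of the scale. Cdr2l was listed at 0 on all 3 AzaC arrays and at 3.14, 2.11 and 1.45 with VPA, and Otx2 at 0 on all 3 VPA arrays and at 2.25, 3.47 and 1.07 with AzaC. Among the 741 genes the median absolute difference between the drugs was 0.17 in both the higher and the lower set. Phactr1 read 4.16, 4.77 and 3.81 with AzaC, 1.46 ± 0.42 (SE) above VPA (adjusted p = 1.00), and Ccnd1 read 9.68, 10.48 and 10.24, which was 0.80 ± 0.28 (SE) above VPA. A difference that does not pass does not show that the drugs act alike. Leaving out single arrays gave between 0 and 2 calls.

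Against PBS, which the AzaC and VPA comparisons share, AzaC had 466 genes higher (3.76%) and 472 lower (3.81%). Side by side, Angptl4 changed by 5.31 with VPA and 4.91 with AzaC, Tubb2b by 5.53 and 4.62, Socs3 by 3.66 and 3.62, Cyp51 by -3.07 and -3.24, and Map1lc3b by 1.04 and 0.48.

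The virgin-labelled arrays show the same drug under the other stage label, with no array in common. There VPA against PBS called 1 gene (0.00807%), the dim Fgf10. The 451 genes higher with VPA in pregnant samples had a median change of -0.06 in virgin-labelled ones, with the same sign in 191, and the 290 lower genes had a median of 0.25, with the same sign in 44. The difference between both changes was called for 39 genes (0.315%; 2340 at an unadjusted p below 0.05), 15 with a higher change in pregnant samples (0.121%) and 24 with a lower one (0.194%). All 12 named genes with such a difference lost it without either pregnant PBS array and without either virgin VPA array. Of the 39, 37 were also called in pregnant samples, 36 had changes of opposite sign under the labels, and 9 were dim. A choice by the difference favours opposite signs, and in virgin-labelled samples only Fgf10 passed, so the signs do not show an opposite response. The exceptions in direction were Socs3, Fgf10 and Mst1r, the last without any change in the virgin-labelled samples.

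Angptl4 read 10.16 and 8.25 with PBS and 7.82 and 7.52 with VPA on virgin-labelled arrays, so its change differed by 6.84 ± 1.18 (SE, adjusted p = 0.0483). Socs3 read 6.93 and 6.88 with PBS there and 7.34 and 7.58 with VPA, the same direction but a smaller step (difference 3.11 ± 0.43, SE, adjusted p = 0.0279). Ccnd1 read 10.55 and 11.31 against 11.42 and 11.18 (difference -2.97). Il15, a cytokine of lymphocytes, read 9.01 and 9.79 against 9.65 and 9.84 (difference -2.95), after 10.07 and 10.17 against 7.65, 7.89 and 7.01 in pregnant samples. For these 4 genes the pregnant groups did not overlap, while the virgin-labelled groups overlapped for Ccnd1 and Il15 and not for Angptl4 and Socs3.

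The count of stage differences rested on single arrays too. Without virgin VPA replicate 1 it was 0 and without replicate 2 it was 10; without pregnant VPA replicate 1 or 2 it was 0 and without replicate 3 it was 5; without pregnant PBS replicate 1 or 2 it was 2 and 3, and without virgin PBS replicate 1 or 2 it was 31 and 80. With the replicate number as a block it was 0.

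**Figure D5:**
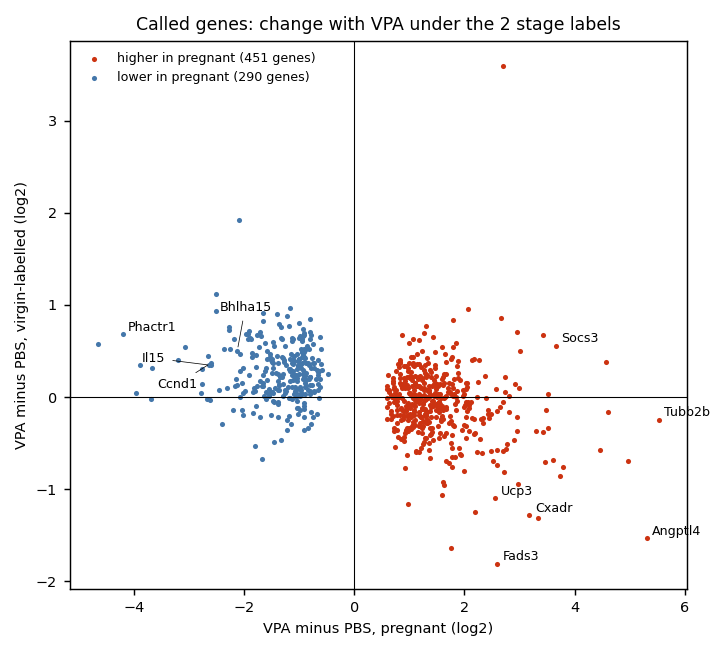
Change with VPA (log2) of the 741 called genes in pregnant samples, horizontal, and in virgin-labelled samples, vertical, with 451 higher genes in red and 290 lower genes in blue. The virgin-labelled changes gather around -0.06 for the red and 0.25 for the blue points, and the red point at the top is N4bp3, which changed by 2.71 and 3.60.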

How the data were processed

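The authors' deposited table gives signals for 22690 probe sets on 15 arrays, read here as log2 from their range; the log base, summary and normalization methods are not given in the sources used here. Values were used as deposited. Of the probe sets, 20380 had a single symbol in the platform annotation, 691 several and 1555 none, and 64 were controls. The probe set with the highest mean represented each of 12393 genes. All 15 arrays entered 1 limma fit (version 3.58.1, R 4.3.3) that gave each of the 6 groups its own mean (9 residual and 2.31 prior degrees of freedom; two-sided, Benjamini-Hochberg adjustment, threshold 0.05). SE is the model's standard error, from a spread shared by the 6 groups. On simulated data for VPA against PBS with 12393 genes, 36 of 100 genes changed by 1 and 92 of 100 changed by 2 were recovered, and 7 of 12193 unchanged genes passed. The simulated noise was normal and independent between genes and arrays, and the changed genes had a mean of at least 6. Deviations of the real arrays were in part correlated, as given below, so these shares need not hold for them. The number of arrays limits the precision. The members, gene lists and tests were chosen with earlier results of these data known. Genes were named by rule: the 12 largest rises and falls among called, non-overlapping genes with a group mean of at least 7, up to 4 called members of a list or the one with the smallest p, the largest stage differences, the smallest p for VPA against AzaC, and 10 fixed genes such as Csn2 and Mki67 (of which H1f0 had no probe set under that symbol); other list members are given to describe a pathway and were picked after their values were seen. Replicate numbers did not enter the fit. Deviations of same-numbered arrays correlated at 0.319 and -0.235 for pregnant PBS with VPA, and at 0.468, 0.468, 0.346 and 0.117 for pregnant with virgin-labelled PBS and VPA arrays, so the blocked count is printed beside the stage difference. Figures were drawn with matplotlib 3.10.9 in Python 3.11.15. Promoter sequences are RefSeq's, matched by symbol for 9887 of the 12393 genes. The alternatives tried (normalization, floor, filter, probe set rule, prior, arrays used, minimum change, block, Gapdh covariate, leaving out each array) are given in the closing section.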

Additional observations from a re-analysis of the deposited data

Results flagged for a closer look

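For 12 of the named genes the change with VPA differed between the pregnant and the virgin-labelled samples by a test of the difference itself (limma, adjusted p below 0.05). The pregnant change was higher by 6.84 for Angptl4, 4.46 for Cxadr, 4.40 for Fads3, 3.93 for Trp53inp1, 3.66 for Ucp3 and 3.11 for Socs3. The difference was negative for Phactr1 (-4.88), Ccnd1 (-2.97), Il15 (-2.95), Bhlha15 (-2.63), Fam160a2 (-2.54) and Rrp12 (-2.54). Bhlha15 is a transcription factor of secretory cells, Rrp12 acts in ribosome assembly, and Cxadr is a junction protein. Cxadr has 4 probe sets with changes from 0.07 to 3.18 in pregnant samples, and Bhlha15 has 2, with -2.12 and -0.23. No gene kept a stage difference with the replicate number as a block, or without pregnant VPA replicate 1 or 2. All 12 lost the call without either virgin VPA array, and without either pregnant PBS array. The cause was not tested.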

How the results depend on the processing

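The counts of genes with VPA against PBS in pregnant samples, 451 higher and 290 lower, moved with most settings. Leaving out 1 array gave 11 to 129 higher and 9 to 128 lower, the fewest without a PBS array. Higher and lower genes numbered 749 and 434 without dim genes, 677 and 386 with a trend and robust prior, 261 and 103 with only the arrays compared, 750 and 483 with the Gapdh covariate, and 3 and 4 when tested against a minimum change of 1.5-fold. With quantile normalization they were 400 and 413, with values floored at 5 they were 466 and 349, and with the mean of probe sets 431 and 293. VPA against AzaC stayed at 0 genes in the settings that kept all arrays, and gave 0 to 2 when 1 was left out. The 39 stage differences became 16 with quantile normalization, 264 without dim genes, 147 with the floor, 242 with the trend prior, 84 with only the arrays compared, 83 with the Gapdh covariate, 0 with the minimum change, and 0 to 80 when 1 array was left out. Deviations of same-numbered arrays correlated unevenly: 0.319 and -0.235 for pregnant PBS with VPA, but 0.468 (PBS, both numbers), 0.346 and 0.117 (VPA) for pregnant with virgin-labelled arrays. With the replicate number as a block the counts were 116 higher, 125 lower and 0 stage differences. Changes of uncalled genes turned sign for Hdac1 (-0.42 to 0.0233 over the fits with 1 array left out), Hdac2 (-0.43 to 0.01) and Ighm (0.44 with the mean of probe sets). The cause was not tested.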
